A study of Mus musculus with 151 samples.

Results

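Ddit3 and 9 other genes of the endoplasmic reticulum (ER) stress response, namely Atf4, Xbp1, Hspa5, Trib3, Chac1, Ppp1r15a, Herpud1, Hsp90b1 and Dnajb9, were followed across hand-picked hair cells of the mouse cochlea. The 10 genes were taken by name from a raw count table of 55291 genes. Its columns were single cells of C57BL/6 mice, each sequenced on its own by full-length Smart-Seq without molecular identifiers. The question was whether the target genes of the response follow Ddit3 from cell to cell, and whether the response differs when an inner hair cell (IHC) takes on an outer hair cell (OHC) state or grows older. P14_WT IHC were 55 cells at postnatal day 14, and P30_WT IHC were 50 cells at postnatal day 30, both of genotype vGlut3-P2A-iCreER/+; Ai9/+. P14_iOHC, the induced OHCs, were 46 cells at postnatal day 14 of genotype vGlut3-P2A-iCreER/+; Tbx2 flox/-; Ai9/+, so that Tbx2 was lost in cells that had been IHCs. All groups thus carried a tamoxifen-inducible Cre at the vGlut3 (Slc17a8) locus and the Ai9 reporter, and Tdtomato+ cells were picked by hand after enzymatic dissociation. The study describes tamoxifen given to the mice at neonatal age. From the Tbx2-deleted mice it picked the smaller Tdtomato+ cells as iOHCs and left the larger ones, taken as unchanged IHCs. The iOHC group was thus also chosen by cell size. The null Tbx2 allele of the iOHC mice is present in every cell of the animal. The labels name no animal behind a cell, so each group counts as 1 sample here. No test over cells was made, and spreads are given between cells.

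The unfolded protein response is set off when unfolded proteins build up in the ER. Its 3 sensors are the kinase PERK (Eif2ak3), the nuclease IRE1 (Ern1) and the membrane-bound factor ATF6. PERK slows translation and favours production of the factor ATF4, IRE1 splices the Xbp1 message, and ATF6 is cut to release a transcription factor. The integrated stress response shares the ATF4 arm and also answers to amino acid shortage and other stimuli. Ddit3 encodes CHOP, a transcription factor of the ATF4 arm that is tied to cell death under lasting stress. Hair cells depend on a steady supply of membrane proteins, and ER stress has been linked to their loss after damage. These counts are of messages: they do not separate spliced from unspliced Xbp1, and ATF4 is governed largely at translation.

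The promoters of 4 members are shown because 3 of them hold a match to a known stress element and because Ddit3 is the gene the others are set against. They are the 150 bases before the RefSeq start of each gene in GRCm38.p6, with matches in capitals. Herpud1 lies at chr8:94386279-94386428 (plus strand), Hspa5 at chr2:34771940-34772089 (plus), Hsp90b1 at chr10:86705445-86705594 (minus) and Ddit3 at chr10:127290643-127290792 (plus).
Herpud1: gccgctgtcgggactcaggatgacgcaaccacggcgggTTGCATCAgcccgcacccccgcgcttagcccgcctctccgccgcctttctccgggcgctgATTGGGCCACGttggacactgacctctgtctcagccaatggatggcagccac
Hspa5: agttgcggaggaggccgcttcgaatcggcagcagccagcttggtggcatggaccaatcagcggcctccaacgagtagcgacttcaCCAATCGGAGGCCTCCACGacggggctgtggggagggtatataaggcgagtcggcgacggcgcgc
Hsp90b1: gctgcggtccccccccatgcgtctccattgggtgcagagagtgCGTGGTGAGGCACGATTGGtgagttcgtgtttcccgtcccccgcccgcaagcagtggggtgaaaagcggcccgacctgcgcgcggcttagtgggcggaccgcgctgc
Ddit3: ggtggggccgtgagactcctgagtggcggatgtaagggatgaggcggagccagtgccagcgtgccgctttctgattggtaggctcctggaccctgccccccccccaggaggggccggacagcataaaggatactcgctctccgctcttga
The windows searched reached from 250 bases before to 50 after the start, on both strands. The ER stress element, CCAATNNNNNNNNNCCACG, matched in Hspa5 at -65 to -47 and in Hsp90b1 at -107 to -89 and -212 to -194, the last outside the bases printed. It was in 39 of 32851 promoters of that length (0.119%). The second ER stress element, ATTGGNCCACG, matched in Herpud1 at -52 to -42, and was in 12 of all promoters (0.0365%). The element of C/EBP-ATF factors, TGATGNAA, matched in Herpud1 at -112 to -105, in Chac1 at -193 to -186 and in Trib3 at 14 to 21 after the start, and was in 3.97% of all promoters. Herpud1 thus held 1 match to each of 2 kinds of element, which do not overlap. TGACGTGG, an element bound by XBP1 and ATF6, was in 0.676% of promoters and in none of the 10 members. The Ddit3 window held no match to any of the 4, which says only that these letters are not in that window.

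The cells carried the identities on their labels at the level of group sums. Tbx2, the deleted gene, had a median of 240.3 counts per 1000000 of the cell's total (CPM) in P14_WT IHC, with a range of 49.5 to 754. In P14_iOHC its median was 41.4 and its range 0 to 427, so the groups overlapped. In the study, the floxed Tbx2 allele was built to lose an exon and not the whole gene. Counts per gene can thus still hold reads from its other exons. They do not show in which iOHCs, or how far, Tbx2 was deleted. Slc26a5, which encodes the OHC motor prestin, was at 142 to 2787 CPM in all 46 P14_iOHC and at most at 4.01 in the P14_WT IHC. Total counts ran from 4326416 to 25035444, and were split by a gap: 51 cells, called the lower set, had at most 10267217 and the other 100, called the upper set, had at least 11814928. Both sets held cells of every group (16 and 39 P14_WT IHC, 12 and 34 P14_iOHC, and 23 and 27 P30_WT IHC), and the results below were also taken within each set. In the wild-type groups the sets were consecutive blocks by cell number. P14_WT IHC-1 to P14_WT IHC-16 and P30_WT IHC-1 to P30_WT IHC-23 made up the lower set, and all later cells the upper set. In P14_iOHC the sets alternated as far as P14_iOHC-18, and all later cells were in the upper set. The labels do not say what the numbering stands for, so depth and block of cells cannot be told apart in the wild-type groups. The sum of 5 IHC markers reached from 325 to 21157 CPM in P14_iOHC and from 12813 to 28659 in P14_WT IHC, so the ranges overlapped. That of 5 OHC markers reached from 1552 to 82202 CPM in P14_iOHC and from 128 to 5949 in P14_WT IHC, and overlapped too. No libraries of a group held identical counts.

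Ddit3 was present in nearly every wild-type cell. In P14_WT IHC it had its lowest value at 0.113, its median at 82.8 and its highest at 383 CPM. In P14_iOHC the lowest was 0, the median 90.9 and the highest 277 CPM, and in P30_WT IHC 0, 119 and 558. The 3 groups overlapped over most of their range, and the highest value by a wide margin belonged to 1 P30_WT IHC, the next P30_WT IHC being at 293. The means were 128 ± 98.4 (SD, n = 55), 90.4 ± 72.3 (n = 46) and 139.7 ± 101 (n = 50) CPM in the same order. The iOHC mean was thus 0.704 of the P14_WT IHC mean, although the iOHC median was the higher of the pair. A count of Ddit3 was found in 55 of 55 P14_WT IHC, which gives an exact (Clopper-Pearson) 95% interval of 93.5 to 100%. It was found in 39 of 46 P14_iOHC (84.8%, interval 71.1 to 93.7%) and in 49 of 50 P30_WT IHC (98%, interval 89.4 to 99.9%), and the numbers of cells were as large after thinning each cell to 4326416 counts. The summed counts of each group came to 132 CPM (exact Poisson 95% interval 131.7 to 133), 91.0 (90.3 to 91.7) and 141 (139.7 to 142). The Poisson intervals cover counting error only. The intervals of shares of cells, here and below, take the cells as independent. Neither kind holds the spread between animals, so they do not compare the groups. GENCODE M21 lists 2 overlapping genes named Ddit3 at 10:127290774-127296288 and 10:127290829-127293753 on the plus strand, and Mars and Gm4189 overlap the first on the minus strand. How the counting dealt with such overlaps is not given in the sources used here.

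**Figure D1:**
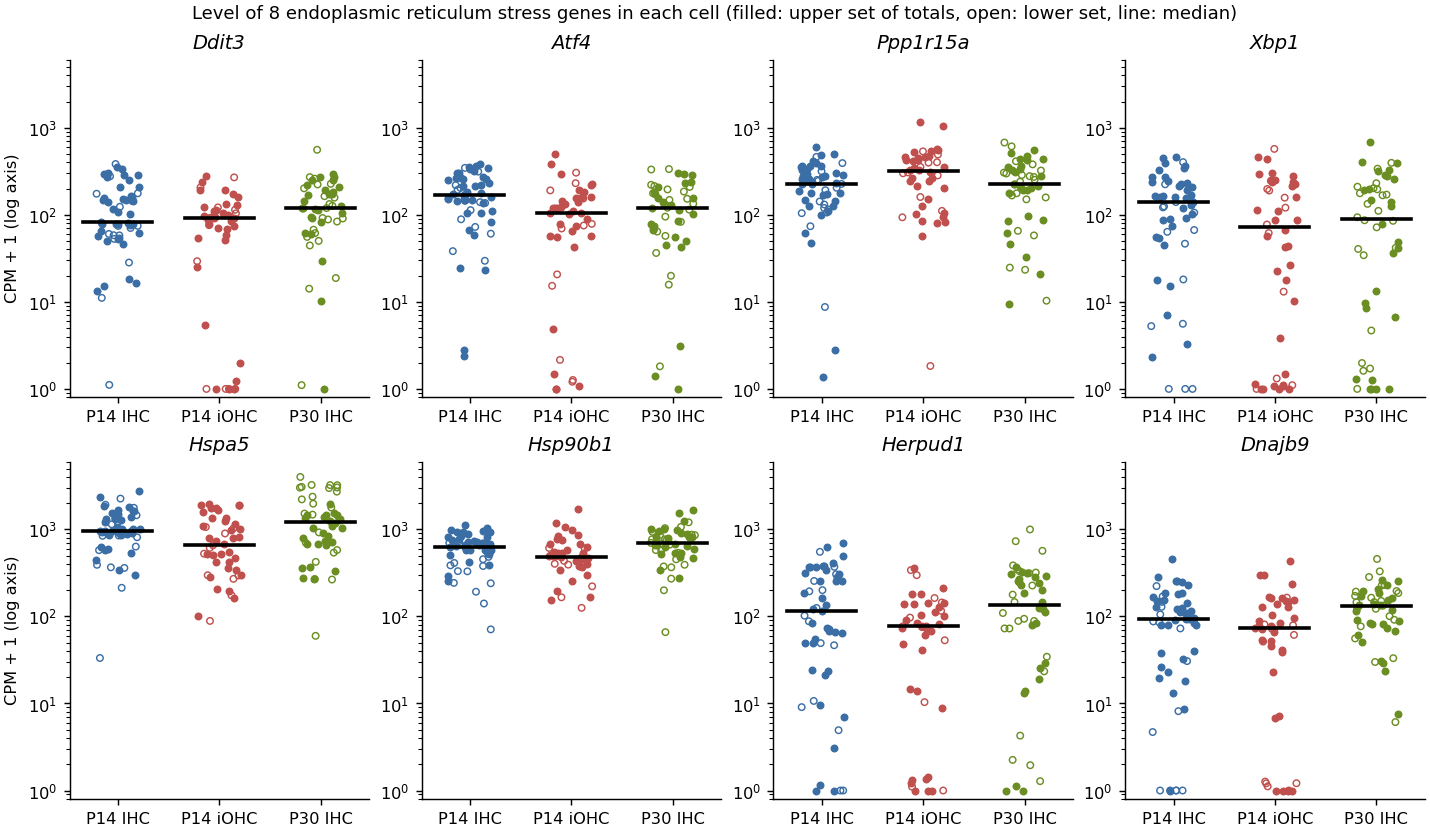
CPM + 1 of 8 genes in every cell on a log axis, 1 point per cell, by group, with the median as a line. Filled points are cells of the upper set of totals and open points cells of the lower set. The groups overlap for every gene, and the iOHC medians of Hspa5, Hsp90b1, Atf4, Xbp1, Herpud1 and Dnajb9 lie under those of P14_WT IHC. Xbp1 and Herpud1 hold cells at 0 in every group and Dnajb9 in both P14 groups. Ddit3 and Atf4 hold them in P14_iOHC and P30_WT IHC but not in P14_WT IHC.

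Atf4 and Ppp1r15a, also of the PERK arm, went different ways in the iOHCs. Atf4 encodes the arm's transcription factor. Its lowest, median and highest values were 1.37, 168 and 381 CPM in P14_WT IHC, 0, 103 and 504.2 in P14_iOHC, and 0, 119 and 335 in P30_WT IHC. Both other groups were lower than P14_WT IHC in mean and median, with mean ratios of 0.658 and 0.723, and overlapped it. Ppp1r15a encodes GADD34, the phosphatase subunit that lifts the block on translation. It ran from 0.357 over 227 to 607 CPM in P14_WT IHC, from 0.834 over 316 to 1170.3 in P14_iOHC, and from 8.40 over 223 to 676 in P30_WT IHC. The iOHC mean of 333 ± 229.7 CPM (n = 46) was 1.44 times the P14_WT IHC mean of 231 ± 132 (n = 55), and in 63.6% of pairs of a P14_iOHC and a P14_WT IHC the iOHC was the higher.

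Trib3 and Chac1 were close to absent. Trib3 encodes a pseudokinase that is a target of ATF4 and CHOP, and Chac1 encodes an enzyme that breaks down glutathione. Trib3 had a count in 2 of 55 P14_WT IHC, of which 1 cell, at 36.2 CPM, held 760 of the 764 counts. It had none in 46 P14_iOHC, where the exact 95% interval of the share reaches 7.71%, and none in 50 P30_WT IHC, where it reaches 7.11%. Taken as 3 cells of the total, a count of 0 allows a share of up to 6.52% and 6%. Chac1 had a count in 8 of 55 P14_WT IHC, up to 64.3 CPM, in 2 of 46 P14_iOHC, at 96.8 and 63.3 CPM, and in 4 of 50 P30_WT IHC, all at or under 4.28 CPM. Neither gene reached 5 counts in 10 cells of either pair of groups compared, so no ratio is given for them. The 8 other members passed that filter in both comparisons.

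The ER chaperones were the most abundant members. Hspa5 encodes BiP, the main ER chaperone of the HSP70 family and a classical target of ATF6. Its lowest, median and highest values were 32.3, 964 and 2744 CPM in P14_WT IHC, 87.8, 667 and 1944 in P14_iOHC, and 58.9, 1224 and 4004 in P30_WT IHC. Hspa5 was in every cell, with the iOHCs lowest and the P30_WT IHC highest in median, within overlapping ranges. Hsp90b1, the HSP90 of the ER (GRP94), stood at 70.0, 631 and 1112 CPM in P14_WT IHC, at 125, 485 and 1730.3 in P14_iOHC, and at 65.0, 692 and 1652 in P30_WT IHC. Dnajb9, an HSP40 partner of BiP that is a target of XBP1, stood at 0, 92.9 and 461 CPM in P14_WT IHC, at 0, 72.0 and 428 in P14_iOHC, and at 5.11, 132 and 457 in P30_WT IHC. It was the 1 member present in all 50 P30_WT IHC but missing in 6 P14_WT IHC and 5 P14_iOHC.

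Xbp1 and Herpud1 varied widely between cells of every group. Xbp1, whose message is the substrate of IRE1, ran from 0 over 139 to 456 CPM in P14_WT IHC, from 0 over 71.5 to 571 in P14_iOHC, and from 0 over 89.3 to 679 in P30_WT IHC. Herpud1 encodes a membrane protein of ER-associated degradation. It ran from 0 over 115 to 705 CPM in P14_WT IHC, from 0 over 76.0 to 359 in P14_iOHC, and from 0 over 135 to 998 in P30_WT IHC. The SD of Herpud1 was 0.998, 0.953 and 1.04 times its mean in these groups, against 0.392, 0.555 and 0.431 for Hsp90b1. Per length of merged exons, the order of median transcripts per 1000000 (TPM) in P14_WT IHC was Hspa5 (576), Hsp90b1 (387), Ppp1r15a (187), Atf4 (171), Herpud1 (127), Ddit3 (121), Xbp1 (98.9) and Dnajb9 (92.5). From Ppp1r15a down to Dnajb9, neighbours in that order overlapped in their quartile ranges, and so did Hspa5 and Hsp90b1, but not Hsp90b1 and Ppp1r15a. In P14_iOHC the levels ran from Hspa5 at 352 to Xbp1 at 49.5 TPM, with Ppp1r15a at 245.8 next to Hsp90b1 at 253, and all neighbours overlapped. In P30_WT IHC they ran from Hspa5 at 665 to Xbp1 at 61.5 TPM, with Ddit3 at 163, and Hsp90b1 and Ppp1r15a were again the neighbours that did not overlap.

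In iOHCs against P14_WT IHC, 7 of the 8 members had a lower mean and Ppp1r15a a higher one, and none differed by over 2-fold. Genes counted as tested had 5 or more counts in 10 or more cells. Of 13673 such genes, 18.4% were higher and 13.2% were lower by over 2-fold in the iOHCs. Herpud1 came closest, with a mean of 90.7 ± 86.4 CPM (n = 46) against 178 ± 178 (n = 55), a ratio of 0.509. Its log2 ratio was -0.98, and 13.6% of the tested genes had a lower one. The log2 ratios of the others were -0.60 for Atf4, -0.51 for Ddit3, -0.40 for Hspa5, -0.28 for Xbp1, -0.22 for Dnajb9, -0.20 for Hsp90b1 and 0.53 for Ppp1r15a. Their median was -0.34, beside 0.08 over all tested genes, of which 46.1% were negative. For each of the 7, the iOHC was the higher cell in fewer pairs than the P14_WT IHC, from 30.9% for Atf4 to 42.9% for Dnajb9. Within the upper set of totals, the ratio of Herpud1 was -1.22, past 2-fold, and within the lower set -0.34. Xbp1 and Hsp90b1 were at 0.56 and 0.03 in the lower set, against -0.54 and -0.27 in the upper set, so their direction was not the same in both. When log2(CPM + 1) was averaged instead, which gives cells at or near 0 more weight, Ddit3, Atf4 and Xbp1 were lower by over 2-fold. So were 12.8% of all tested genes with that average.

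In P30_WT IHC against P14_WT IHC, 6 of 8 members had a higher and 2 a lower mean, and again none was past 2-fold. Among 12946 tested genes, 8.83% were higher and 10.4% lower by over 2-fold. The P14_WT IHC serve in both comparisons, so the pair is not independent. Dnajb9 and Hspa5 had the largest positive log2 ratios, both at 0.38, followed by Hsp90b1 at 0.25, Ddit3 at 0.12, Ppp1r15a at 0.08 and Herpud1 at 0.07, while Xbp1 was at -0.14 and Atf4 at -0.47. Their median was 0.10, beside -0.03 over all tested genes. The means of Hspa5 were 1402 ± 997 (n = 50) and 1079.6 ± 559.6 CPM (n = 55). This difference was not the same in both sets of totals. In the lower set Hspa5 had a median of 1972 CPM in 23 P30_WT IHC and 828 in 16 P14_WT IHC, a log2 ratio of means of 1.03. In the upper set it had 1040.1 in 27 and 999 in 39 cells, a ratio of -0.22. Dnajb9 likewise was at 1.26 in the lower and -0.03 in the upper set. In the upper set alone, 6 of 8 members were lower in P30_WT IHC, but Ppp1r15a, at -0.002, and Dnajb9 were close to no difference. The median of the 8 was -0.12 there, beside 0.01 over all tested genes. With the median-of-ratios scaling, which moved the median of all genes to 0.30, Xbp1 turned positive too, and 2010 genes were higher and 892 lower by over 2-fold, against 1143 and 1341 with totals. Genes of the dissociation response moved with this comparison as well: 6 of 18 tested were higher by over 2-fold in P30_WT IHC and none lower, among them Hspa1a, 8.55-fold, and Hspa1b, 5.75-fold. Hspa5 had a rho of 0.49 with the score of that list across the P30_WT IHC, and its part in the result was not tested.

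**Figure D2:**
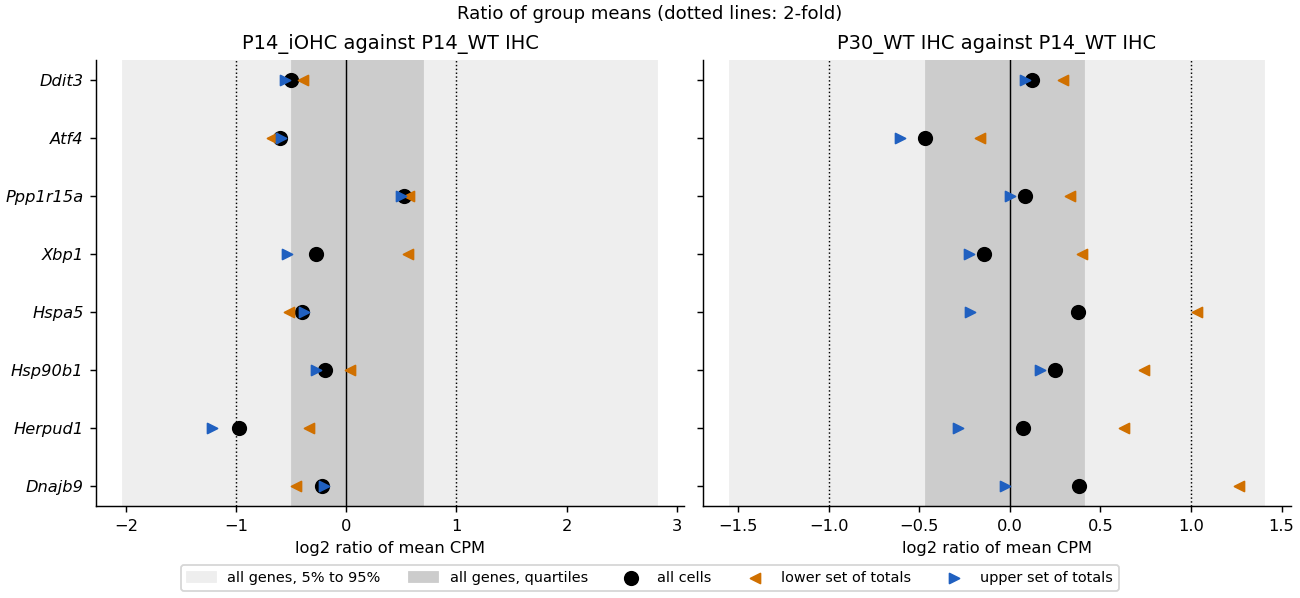
Log2 ratio of mean CPM for 8 members in both comparisons, from all cells (circles) and within each set of totals (triangles), over bands that hold the quartiles and the 5% to 95% range of all tested genes. In iOHCs all members but Ppp1r15a lie left of 0 with all cells, and Herpud1 lies next to the 2-fold line. The triangles of Xbp1 lie on opposite sides of 0 in both panels, and those of Hspa5, Herpud1 and Dnajb9 do so for P30_WT IHC.

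Markers of dissociation and of other cells moved with the iOHC group. Of a list of 24 genes that respond to dissociation, such as Fos, Ier2 and Hspa1a, 21 were tested. Of these, 13 (61.9%) were higher by over 2-fold in P14_iOHC, with a median log2 ratio of 1.40, and none lower. Over all tested genes 18.4% were higher. The summed level of that list ran from 3325 over 9523 to 13527 CPM in P14_WT IHC, from 4601 over 8354 to 27326 in P14_iOHC, and from 6439 over 12679 to 21511 in P30_WT IHC. All 11 tested of 14 supporting cell markers were higher by over 2-fold in P14_iOHC. The filter on counts took cells of both groups together. Epyc, Fabp7 and Cd44, and Egr2, Klf4 and Hspb1 of the dissociation list, passed it only with iOHC cells counted in. That all tested supporting cell markers were higher was thus in part set by the filter. The sum of the 14 ran from 0 over 866 to 10770.1 CPM against 0 over 15.4 to 2202 in P14_WT IHC. Prox1 was at 0 in both groups, and Epyc in P30_WT IHC. In P30_WT IHC the sum ran from 0 over 22.2 to 869 CPM. In 16 of the 46 iOHCs the sum exceeded the highest one of P14_WT IHC. Without those 16 cells the log2 ratios were -0.62 for Ddit3, -0.77 for Herpud1, -0.67 for Dnajb9 and 0.65 for Ppp1r15a, and none of the 8 passed 2-fold. The part of dissociation in the ratios was not tested.

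Within each group, the other members followed Ddit3 only weakly by rank, apart from Herpud1 in wild-type IHCs. Spearman's rho over CPM was taken across the cells of 1 group, and it describes these cells, which share dissociation and library preparation. In P14_WT IHC (n = 55), rho with Ddit3 was 0.53 for Herpud1, 0.34 for Xbp1, 0.33 for Hspa5, 0.32 for Atf4, 0.29 for Dnajb9, 0.28 for Hsp90b1 and 0.23 for Ppp1r15a. The median of the 7 was 0.32. Over 8180 genes present in at least 50% of those cells the median rho was 0.02, with 5% to 95% of them between -0.23 and 0.27, so 6 of the 7 lay above that range with all cells. That count was 4 within the lower set of totals, 1 within the upper set, 3 without the 5 cells far from the group in depth, detected genes or mitochondrial share, and 2 with the dissociation score described below held fixed. Herpud1 was in each of these counts, at 0.65 in the lower and 0.43 in the upper set, whereas Dnajb9 was at 0.68 and 0.00, Hspa5 at 0.58 and 0.19, and Hsp90b1 at 0.44 and 0.09. Of the genes outside the list, 3 had a higher rho with Ddit3 than Herpud1.

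In P30_WT IHC (n = 50), Herpud1 again stood highest, at 0.55, and no gene outside the list was above it among 7751. Hspa5 was at 0.32, Xbp1 at 0.30, Hsp90b1 at 0.22 and Ppp1r15a at 0.17. Atf4, at -0.06, and Dnajb9, at -0.02, did not rank with Ddit3. The median of the 7 was 0.22, beside -0.02 over all genes and a 5% to 95% range of -0.26 to 0.21. The relation of Atf4 to Ddit3 took opposite signs in the sets of totals, at 0.48 in 23 cells of the lower and -0.58 in 27 cells of the upper set. Herpud1 was at 0.83 in the lower and 0.31 in the upper set, the latter beside a 95% bound of 0.30 over all genes there, and Hspa5 was at 0.65 and -0.03. With all cells 4 members lay above the range of all genes, with the lower set 3, and with the upper set Herpud1 alone. The place of Herpud1 depended on the measure. With Pearson's r on log2(CPM + 1), Hspa5 was at 0.58, Hsp90b1 at 0.43 and Herpud1 at 0.39, beside a 95% bound of 0.25. In P14_WT IHC Herpud1 stayed highest with that measure, at 0.45.

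In P14_iOHC (n = 46), the order was another one. Hspa5 was highest at 0.39, followed by Atf4 at 0.38, Dnajb9 at 0.25, Xbp1 at 0.24, Herpud1 at 0.17, Ppp1r15a at 0.16 and Hsp90b1 at 0.11. The median of the 7 was 0.24, beside 0.07 over 8511 genes and a 5% to 95% range of -0.22 to 0.32, above which Hspa5 and Atf4 lay with all cells. No member lay above the 95% bound over all genes of the same cells within the upper set of totals, without the 16 iOHCs high in supporting cell markers, or with the dissociation score held fixed. Within the lower set of 12 cells Hspa5, at 0.69, and Ppp1r15a, at 0.66, did so, against 0.24 and -0.05 in the upper set. With Pearson's r on log2(CPM + 1), Ppp1r15a was highest, at 0.34, and no member lay above the 95% bound of 0.36. For Herpud1, 2276 genes outside the list had a higher rho. Its rho was 0.13 in the lower and 0.17 in the upper set of totals of the iOHCs. The difference in rho between groups was not tested. In the iOHCs the dissociation score, the mean log2(CPM + 1) of its 24 genes, had a rho of 0.46 with Ddit3, 0.49 with Atf4 and 0.54 with Hspa5. With that score held fixed, the median of the 7 was 0.13, beside 0.00 over all genes with a 95% bound of 0.26, and Hspa5 and Atf4 were both at 0.20. In P14_WT IHC the score had a rho of 0.31 with Ddit3, and with it held fixed Herpud1 was at 0.50 and the median at 0.22, beside 0.02 over all genes with a 95% bound of 0.26.

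**Figure D3:**
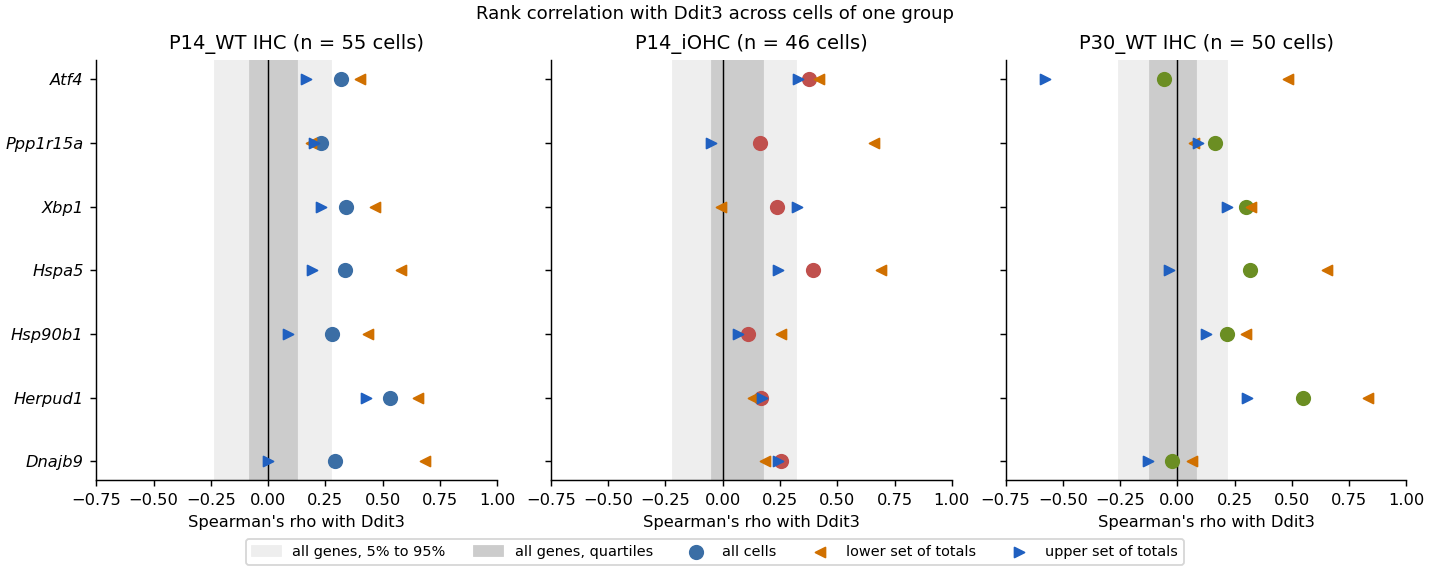
Spearman's rho of 7 members with Ddit3 across the cells of each group, from all cells (circles) and within each set of totals (triangles), over bands with the quartiles and the 5% to 95% range of all genes present in at least 50% of the cells. Herpud1 lies furthest right in both wild-type groups, at 0.53 and 0.55, and at 0.17 in P14_iOHC, and the triangles of Atf4 in P30_WT IHC lie on opposite sides of 0. The bands are those of all cells and not of the sets.

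The 3 cells of each group with the most Ddit3 differed in the other genes. In P14_WT IHC they had 383, 358 and 332 CPM of Ddit3, with 304, 338 and 373 of Herpud1 and 849, 1856 and 627 of Hspa5. In P30_WT IHC they had 558, 293 and 270.4 CPM of Ddit3, with 731, 327 and 998 of Herpud1 and 2986, 1462 and 3240.0 of Hspa5. In P14_iOHC they had 277, 268 and 235 CPM of Ddit3, with 359, 52.2 and 0 of Herpud1 and 1882, 1867 and 1011 of Hspa5. Cells with Ddit3 but almost no Herpud1 were in every group, among them a P30_WT IHC at 248 CPM of Ddit3 and 0 of Herpud1 and a P14_WT IHC at 207 and 6.07, which were named after their values were seen. The third of those iOHCs was also the one with the most Chac1, at 96.8 CPM. Trib3 was at 0 in all 9 cells with the most Ddit3, 3 from each group.

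**Figure D4:**
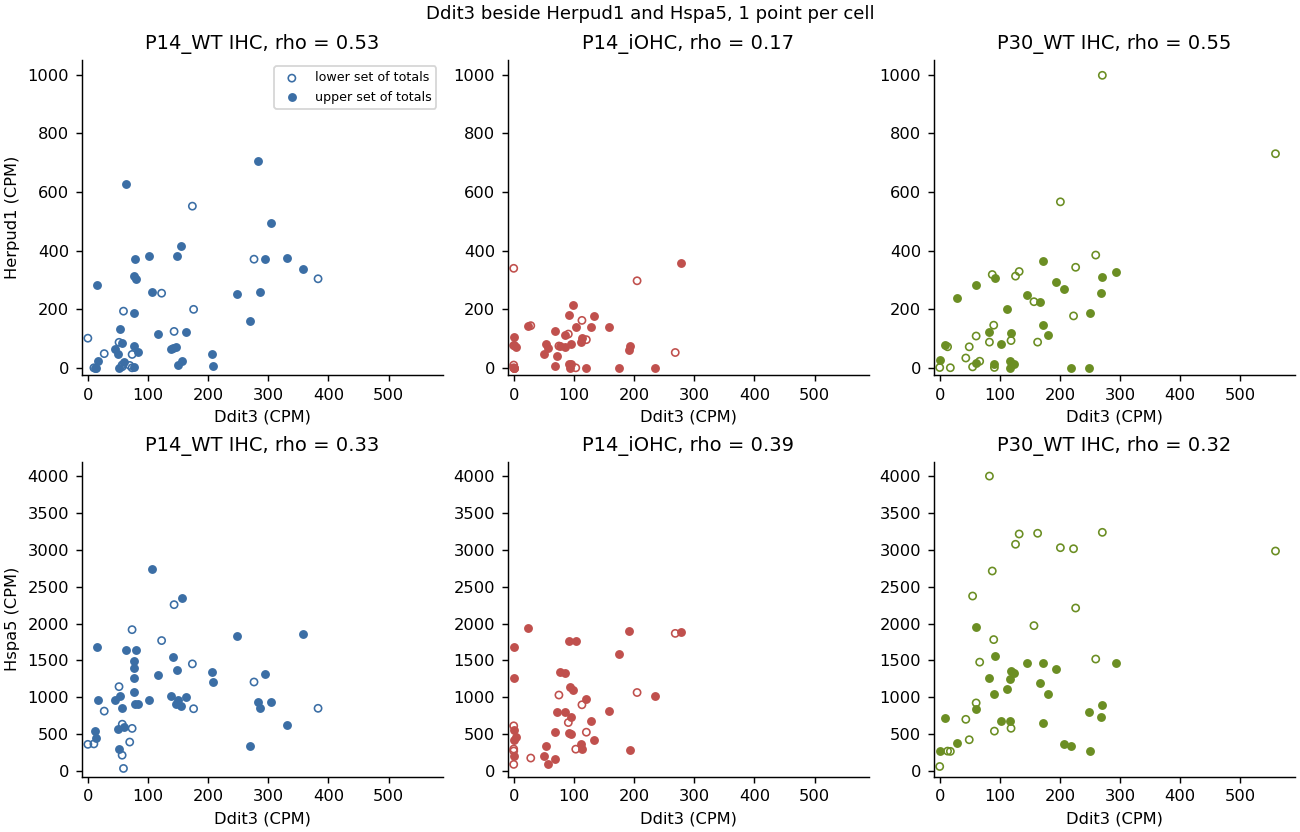
Herpud1 (upper row) and Hspa5 (lower row) against Ddit3 in CPM, 1 point per cell and 1 column per group, with open points for the lower set of totals. Herpud1 rises with Ddit3 in both wild-type groups, with wide scatter, every group holds cells with Ddit3 above 100 CPM and Herpud1 at or near 0, and the highest Hspa5 values of P30_WT IHC are open points.

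Among themselves, the 8 members were positively related in most pairs. In P14_WT IHC all 28 pairs had a positive rho, from 0.15 for Atf4 with Ppp1r15a to 0.53 for Ddit3 with Herpud1, with a median of 0.32 beside 0.01 over all pairs of genes. In P14_iOHC 25 of 28 were positive, with a median of 0.18 beside 0.03, and the chaperones Hspa5 and Hsp90b1 gave the highest value, 0.52. The lowest there was -0.11, for Xbp1 with Herpud1, which were at 0.31 in P14_WT IHC. In P30_WT IHC 23 of 28 were positive, with a median of 0.20 beside 0.01. Hspa5 and Herpud1 had a rho of 0.33, 0.11 and 0.49 in P14_WT IHC, P14_iOHC and P30_WT IHC. In P14_WT IHC members ran against the share of mitochondrial counts, with a rho of -0.43 for Ddit3, -0.45 for Hspa5 and -0.51 for Ppp1r15a, and the part of that share was not tested. In P30_WT IHC the rho of Ddit3 with that share was 0.01.

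The genes outside the list that were most like Ddit3, by the smallest of the 3 rho values, were Cldn7, Tnfrsf12a, Odc1, H3f3b and Srsf4, out of 6855 genes present in at least 50% of the cells of every group. Cldn7, a claudin of tight junctions, had a rho of 0.34, 0.29 and 0.34 in P14_WT IHC, P14_iOHC and P30_WT IHC. Tnfrsf12a, the receptor of the cytokine TWEAK, had 0.28, 0.35 and 0.39. Odc1, the first enzyme of polyamine synthesis, had 0.29, 0.29 and 0.28. H3f3b, a gene of histone H3.3, had 0.27, 0.40 and 0.36, and the splicing factor Srsf4 had 0.28, 0.28 and 0.27. Herpud1, with 0.17 as its smallest value, came behind 59 such genes.

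Around the members, the other lists of the pathway held single genes past 2-fold, and their shares read against those of all tested genes given above. Genes named here with a mean under 10 CPM in every group were named after their values were seen. Among 27 other target genes of ATF4, 22 were tested in iOHCs against P14_WT IHC, of which 4 (18.2%) were higher and 3 (13.6%) lower by over 2-fold, with a median log2 ratio of -0.23. These shares were near the 18.4% and 13.2% of all tested genes. Phgdh, the first enzyme of serine synthesis, was lower, with a median of 0 CPM in P14_iOHC (range 0 to 433) and of 529.7 in P14_WT IHC (80.4 to 1539). Its means were 24.6 ± 72.9 (n = 46) and 614 ± 376 CPM (n = 55), so it was 25.0-fold lower. Nupr1, a stress-induced chromatin protein, was higher, at 60.7 ± 143 against 2.50 ± 9.48 CPM, but had a count in only 25 of 46 iOHCs and in 5 of 55 P14_WT IHC. Atf3, a transcription factor that also answers to dissociation, was higher at 77.3 ± 183 against 15.2 ± 36.3 CPM, with a count in 25 and 18 cells. The others past 2-fold were Cebpb and Slc7a11, both higher, and Ddit4 and Slc7a1, both lower. In P30_WT IHC, 20 of the 27 were tested, of which 3 (15%) were higher and 6 (30%) lower, with a median of -0.37, beside 8.83% and 10.4% of all tested genes. Phgdh was at 225 ± 246 CPM there, 2.73-fold lower than at postnatal day 14, Gars, the glycyl-tRNA synthetase, was 2.44-fold lower and Aldh18a1, an enzyme of proline synthesis, 2.33-fold lower. The others were Atf3, Cebpb and Slc7a11, which were higher, and Atf5, Ddit4 and Shmt2, which were lower.

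Of the 12 sensors and regulators, all were tested. Of all tested genes, 18.4% were higher and 13.2% lower by over 2-fold in P14_iOHC, and 8.83% and 10.4% in P30_WT IHC. In P14_iOHC 1 of the 12 (8.33%) was higher and none lower, with a median log2 ratio of 0.01. In P30_WT IHC 1 (8.33%) was higher and 1 (8.33%) lower, with a median of 0.05. The higher one was Eif2ak3, the PERK kinase, in both, at 6.33 CPM in P14_iOHC and 6.14 in P30_WT IHC against 1.91 in P14_WT IHC. The lower one was Ppp1r15b, the constitutive partner of Ppp1r15a, at 13.8 ± 23.3 against 28.4 ± 42.1 CPM. Of 16 other ER chaperones and folding enzymes, all tested, 1 (6.25%) was higher in P14_iOHC, with a median of -0.12. In P30_WT IHC 2 (12.5%) were lower, with a median of -0.22. Pdia4, a disulfide isomerase, was 2.14-fold higher in P14_iOHC and 2.24-fold lower in P30_WT IHC, from a mean of 24.1 ± 43.6 CPM in P14_WT IHC. Ppib, a proline isomerase of the ER, was 2.26-fold lower in P30_WT IHC.

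All 19 other genes of ER-associated degradation and translocation were tested. In P14_iOHC 1 (5.26%) was higher and 2 (10.5%) lower, beside 18.4% and 13.2% of all tested genes, with a median log2 ratio of -0.19. In P30_WT IHC 1 (5.26%) was higher and 1 (5.26%) lower, beside 8.83% and 10.4%, with a median of -0.10. Selenos, a selenoprotein of the degradation complex, had its lowest, median and highest values at 45.9, 924 and 2802 CPM in P14_WT IHC and at 1.00, 188 and 973 in P14_iOHC. Its mean was 4.13-fold lower in P14_iOHC, at 257 ± 199.8 against 1061 ± 620.1 CPM. It was lower in both sets of totals but to an unlike extent. The means were 275 against 546 CPM in the lower set and 250 against 1272 in the upper set. In P30_WT IHC Selenos was at 1040.1 ± 502 CPM. Edem1, which recognises misfolded glycoproteins, was 2.66-fold higher in P14_iOHC, and its relative Edem2 was 2.39-fold higher in P30_WT IHC, at 338 ± 169.8 against 142 ± 113 CPM. Derl3, a derlin of the export channel, was 2.60-fold lower in P14_iOHC and 7.72-fold lower in P30_WT IHC, from a mean of 12.5 ± 22.1 CPM.

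Of 9 cell death genes linked to Ddit3, 5 were tested in each comparison. In P14_iOHC 1 (20%) was lower, beside 13.2% of all tested genes, with a median log2 ratio of -0.13. In P30_WT IHC 3 (60%) were lower, beside 10.4% of all tested genes, with a median of -1.12. These 3 were Bbc3, Bak1 and Hrk, all with means under 10 CPM. The gene lower in P14_iOHC was Bcl2, a protein that holds back cell death and that CHOP is known to repress. Bcl2 had its lowest, median and highest values at 31.8, 275 and 888 CPM in P14_WT IHC, at 0, 2.28 and 347 in P14_iOHC, and at 48.02, 314 and 799 in P30_WT IHC. It was in all wild-type cells and in 30 of 46 iOHCs, and its mean was 8.26-fold lower in P14_iOHC than in P14_WT IHC. The mean of the Ddit3 message was 1.42-fold lower. CHOP protein was not measured, and its part in the level of Bcl2 was not tested.

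**Figure D5:**
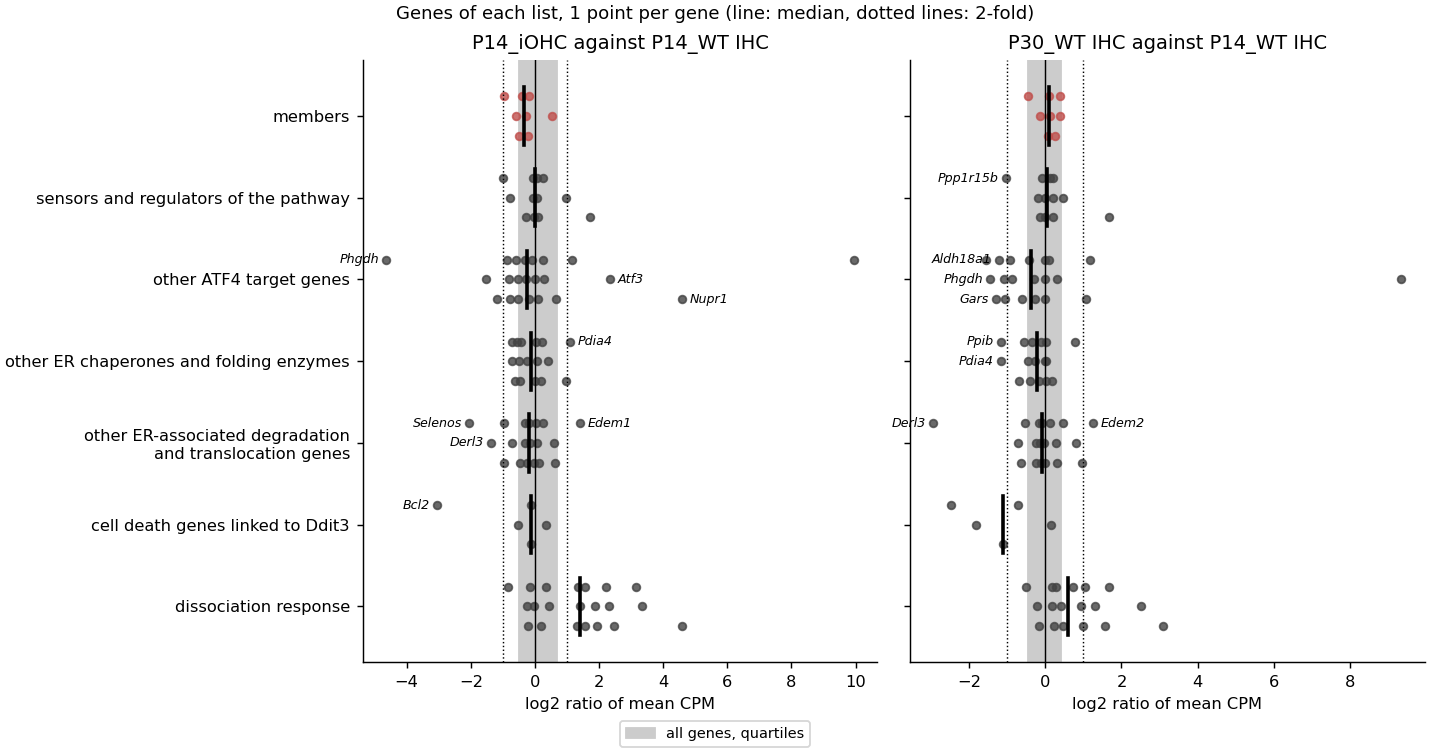
Log2 ratio of mean CPM of each tested gene of the members, the 5 other pathway lists and the dissociation response, in both comparisons, 1 point per gene, with the median of the list as a line, the quartiles of all tested genes as a band and 2-fold as dotted lines. The members lie between the dotted lines in both panels, the dissociation response list lies to the right in P14_iOHC, and Phgdh, Selenos and Bcl2 lie to the left. The point furthest right in both panels is Slc7a11, which was under 10 CPM in mean in every group.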

How the data were processed

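Raw count values per gene symbol and cell were deposited for 55 P14_WT IHC, 46 P14_iOHC and 50 P30_WT IHC. Per the labels and the study's methods, the authors trimmed reads with Trimmomatic 0.39, checked them with FastQC 0.11.9, aligned them to mm10 with HISAT2 2.1.0 and counted them with HTSeq 0.10.0. The annotation, the strand setting and the handling of shared reads are not given in the sources used here. Libraries held 4326416 to 25035444 counts, so a floor of 3 counts lay at 0.120 to 0.693 CPM.

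Counts were divided by each cell's total (CPM). Groups were compared by the ratio of mean CPM, called past 2-fold, among genes that had 5 or more counts in 10 or more cells of both groups together. The study tested over cells with no animal named, which was not repeated. TPM used merged exon lengths of GENCODE M21, and promoters came from RefSeq (GRCm38.p6), where all 10 members matched by symbol. Sets of totals were split at the widest gap. Scalings came from edgeR 4.0.16 and DESeq2 1.42.0, the rest from pandas 2.3.3 and scipy 1.17.1. Ratios and rho were tested on simulated data.

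All members are named. From each other list, up to 3 genes past 2-fold with the largest ratio and a mean of at least 10 CPM in the higher group are named. Lists of markers of glia, neurons, fibroblasts, blood and immune cells were also read, and their sums are in the closing section. The members and lists were chosen with earlier results of these data known.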

Additional observations from a re-analysis of the deposited data

How the results depend on the processing

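No member was past 2-fold in either comparison under TMM or median-of-ratios scaling, totals without mitochondrial genes, thinned counts, or without cells over 3 median absolute deviations or the highest cell, and none was past 4-fold. In P14_iOHC, 1 member was past it with counts summed over cells (Herpud1), 1 in the upper set of totals (Herpud1), 1 without the filter on counts (Trib3), 3 on mean log2(CPM + 1) and 4 on mean log2(CPM + 0.1). In P30_WT IHC, it was 1 on mean log2(CPM + 1) (Dnajb9), 2 on mean log2(CPM + 0.1) (Xbp1 and Dnajb9), 2 without the filter (Trib3 and Chac1) and 2 in the lower set of totals (Hspa5 and Dnajb9). The cause was not tested. The median rho with Ddit3 in P14_WT IHC was 0.47 in the lower and 0.19 in the upper set of totals, and in P14_iOHC 0.13 given the dissociation score. Of 58 alternative values for these counts and medians, 46 equalled the count of 0 or, for medians, stayed within 1 SD of the members. Some of them could not differ. With no member past 2-fold none can be past 4-fold, and no iOHC was over 3 median absolute deviations. That SD is wide: in P30_WT IHC the median rho was 0.22 with all cells and 0.09 in the upper set, which counted as within it. The sign of a member's ratio turned in 2 of 96 alternative values in P14_iOHC (Xbp1 and Hsp90b1, in the lower set) and in 6 of 88 in P30_WT IHC (5 members, Xbp1 with median-of-ratios scaling and in the lower set, and Hspa5, Ppp1r15a, Herpud1 and Dnajb9 in the upper set). Leaving out the iOHCs high in supporting cell markers was chosen after seeing the data. No paired analysis was possible because the results come from no test and a cell's number marks no animal. Over all genes, those past 2-fold in P14_iOHC were 1412 higher and 1751 lower on mean log2(CPM + 1) and 2331 and 2987 on mean log2(CPM + 0.1), against 2514 and 1807 in mean CPM, and in P30_WT IHC 305 and 1546, and 714 and 3105. Median-of-ratios scaling moved the median log2 ratio of all genes in P14_iOHC from 0.08 to 0.19. The number of animals behind the cells is not given, so the spread between animals is unknown.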

Other observations

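Slc7a11, the cystine transporter and a target gene of ATF4, was singled out after its values were seen. In P14_WT IHC it had a count in 4 of 55 cells, never more than 1. In P14_iOHC it had a count in 40 of 46 cells, with a median of 3.36 and a highest value of 24.7 CPM. In P30_WT IHC it had one in 28 of 50 cells, with a highest value of 15.6 CPM. Its detection moved with the set of totals, which in the wild-type groups also followed the numbering of the cells. Among P30_WT IHC it was found in 26 of 27 cells of the upper set, at a median of 5.87 CPM, and in 2 of 23 of the lower set. Among P14_iOHC it was found in 33 of 34 cells of the upper and 7 of 12 of the lower set, and among P14_WT IHC in 3 of 39 and 1 of 16. The part of the set of totals in these values was not tested.

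Gars, also a target gene of ATF4, was at a median of 507 and 503 CPM in the lower and upper sets of P14_iOHC, at 429 and 252 in those of P14_WT IHC, and at 95.9 and 126 in those of P30_WT IHC.

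Markers of other cells also differed in P14_iOHC. All 3 tested of 5 glia markers were higher by over 2-fold than in P14_WT IHC, of which Sox10 had means of 46.5 and 2.86 CPM. Mbp and Sox10 passed the filter on counts, which took both groups together, only with iOHC cells counted in. That the tested glia markers were all higher was thus in part set by the filter. All 3 tested of 6 neuron markers were lower. Of all tested genes, 18.4% were higher and 13.2% lower. Of 6 fibroblast markers 4 were tested, with 2 higher and 1 lower, and their sum reached 4594 CPM in 1 iOHC against at most 865 in P14_WT IHC. The part of these cells in the results was not tested. As median sums, glia markers were at 0, 27.7 and 0 CPM in P14_WT IHC, P14_iOHC and P30_WT IHC, fibroblast markers at 86.6, 116 and 78.2, blood markers at 0, 0 and 7.10, and immune cell markers at 4.72, 0 and 0. Neuron markers, of which hair cells express some, were at 234, 83.0 and 242. The sum of 7 hair cell markers was at 8371, 8254 and 7703 CPM, that of 5 IHC markers at 20837, 2007 and 19819, and that of 5 OHC markers at 869, 45445 and 416.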
